A study of Mus musculus with 10 samples.

Results

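Peaks of the glucocorticoid receptor (GR), of lysine-specific demethylase 1 (LSD1) and of histone H3 mono- or dimethylated at lysine 9 (H3K9me1 and H3K9me2) were examined at Fkbp5, 1 of 26180 RefSeq genes. On the mouse build GRCm38 (mm10), Fkbp5 (transcript NM_010220.4) lies on the minus strand at chr17:28398753-28486149, with 11 exons over 87.4 kb. Members were the peaks whose midpoint fell in the gene body or within 50 kb of either end, a window of 187 kb at chr17:28348753-28536149. The window held 92 of the 365066 peaks in 8 lists. The gene was chosen on the GR fed values themselves, because a site upstream of it ranks among the strongest GR peaks of fed muscle, so these values are given as a description and support nothing.

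Chromatin came from skeletal muscle of C57BL/6J mice, 10 weeks old by the labels (the text of the study gives another age), which were either fed or starved for 24 h. Each of the groups GR fed, GR starved, LSD1 fed, LSD1 starved, H3K9me1 fed, H3K9me1 starved, H3K9me2 fed and H3K9me2 starved was 1 library with 1 peak list, and 1 input library per condition served as control for peak calling. The labels name no genetic change in any group. The study states in general terms a minimum number of mice per condition and that experiments were repeated, but the number of animals behind each of these libraries is not given in the sources used here. With 1 library per group there are no replicates, no test between conditions and no p-value, and every difference below is one between 2 libraries. Whole muscle holds several cell types, so more cells with a site bound and more binding per cell cannot be told apart. The read depth of the libraries is unknown, and a site that is missing from a list was not called there, which does not show that it was empty.

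Fkbp5 encodes FKBP51, a co-chaperone that joins HSP90 in the unliganded GR complex and lowers the affinity of the receptor for its hormone. Glucocorticoids induce Fkbp5 in many tissues, which closes a short feedback loop on GR. GR acts by binding as a dimer to glucocorticoid response elements (GREs), a pair of inverted 6-base repeats, often far from the gene it regulates. LSD1 removes methyl groups from histone H3, among them those on lysine 9, where dimethylation is a mark of repressed chromatin.

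The 2 GR sites of highest fold enrichment are printed because they lead the list at the gene and differ in their GRE content. The GRE was searched as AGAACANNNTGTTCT (N is any base), a letter string that reads the same on both strands, so 1 search covers both. At most 1 mismatch in the fixed bases counted as GRE-like, and up to 2 mismatches were searched as an alternative. The stretches below are those shared by every GR or LSD1 list that had a peak at the site, on the plus strand of GRCm38 (RefSeq), 5′ to 3′, with matches of up to 2 mismatches in capitals.
Site 26.9 kb upstream of the TSS, chr17:28512992-28513191, shared by all 4 GR and LSD1 lists: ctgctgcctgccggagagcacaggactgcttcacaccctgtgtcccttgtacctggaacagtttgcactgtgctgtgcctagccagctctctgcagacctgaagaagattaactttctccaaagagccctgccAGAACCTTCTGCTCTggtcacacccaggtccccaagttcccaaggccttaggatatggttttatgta
Site in intron 5, chr17:28420292-28420591, shared by GR fed, GR starved and LSD1 fed: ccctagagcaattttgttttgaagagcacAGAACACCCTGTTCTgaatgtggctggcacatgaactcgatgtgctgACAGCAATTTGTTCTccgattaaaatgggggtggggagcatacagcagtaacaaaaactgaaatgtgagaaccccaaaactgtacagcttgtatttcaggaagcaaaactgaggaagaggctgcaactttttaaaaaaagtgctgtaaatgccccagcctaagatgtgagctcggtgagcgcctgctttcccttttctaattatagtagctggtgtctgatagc
The intron 5 stretch held a full match with no mismatch and, further to its right, a weaker one with the substitutions G2C and A4G. The upstream stretch held only a weaker match, with the substitutions A6C and T12C. In these tokens the motif's base comes first, then its position counted from 1 at the 5′ end of the motif as spelled above, then the base of the site.

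The intron 5 element was the only GRE-like sequence in the 13 GR fed peaks of the window, so 1 of 13 had one, beside 2.17% of all GR fed peaks. Among the 18 GR starved peaks it was again 1, beside 0.712% of all GR starved peaks. Stronger peaks held one more often, 7.28% of GR fed and 7.75% of GR starved peaks with a fold of at least 5. In the window 7 GR fed and 6 GR starved peaks had such a fold. With up to 2 mismatches, 4 of the 13 GR fed peaks and 5 of the 18 GR starved peaks had a match, beside 9.75% and 4.33% of all peaks of those lists. Peaks in the window were longer than the average (median length 515 bp in GR fed, 277 bp in the whole list), and a longer peak has more room for a match. The other matches with 2 mismatches are given with 8 bases on either side, plus strand, match in capitals.
36.0 kb upstream, chr17:28522127-28522141, substitutions A1G and T13C: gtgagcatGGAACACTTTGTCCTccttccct
37.0 kb upstream, chr17:28523177-28523191, substitutions T13G and T15C: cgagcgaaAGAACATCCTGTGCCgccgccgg
27.8 kb upstream, chr17:28513902-28513916, substitutions T13C and T15C: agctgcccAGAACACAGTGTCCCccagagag
2.19 kb upstream, chr17:28488336-28488350, substitutions A1G and T10A: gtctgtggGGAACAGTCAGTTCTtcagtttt
The first pair lay in the GR fed and the GR starved peak at about 36.8 kb, the next one in both GR peaks at about 27.8 kb, and the last one in a GR starved peak only. No match says only that these letters are not in the peak.

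**Figure D1:**
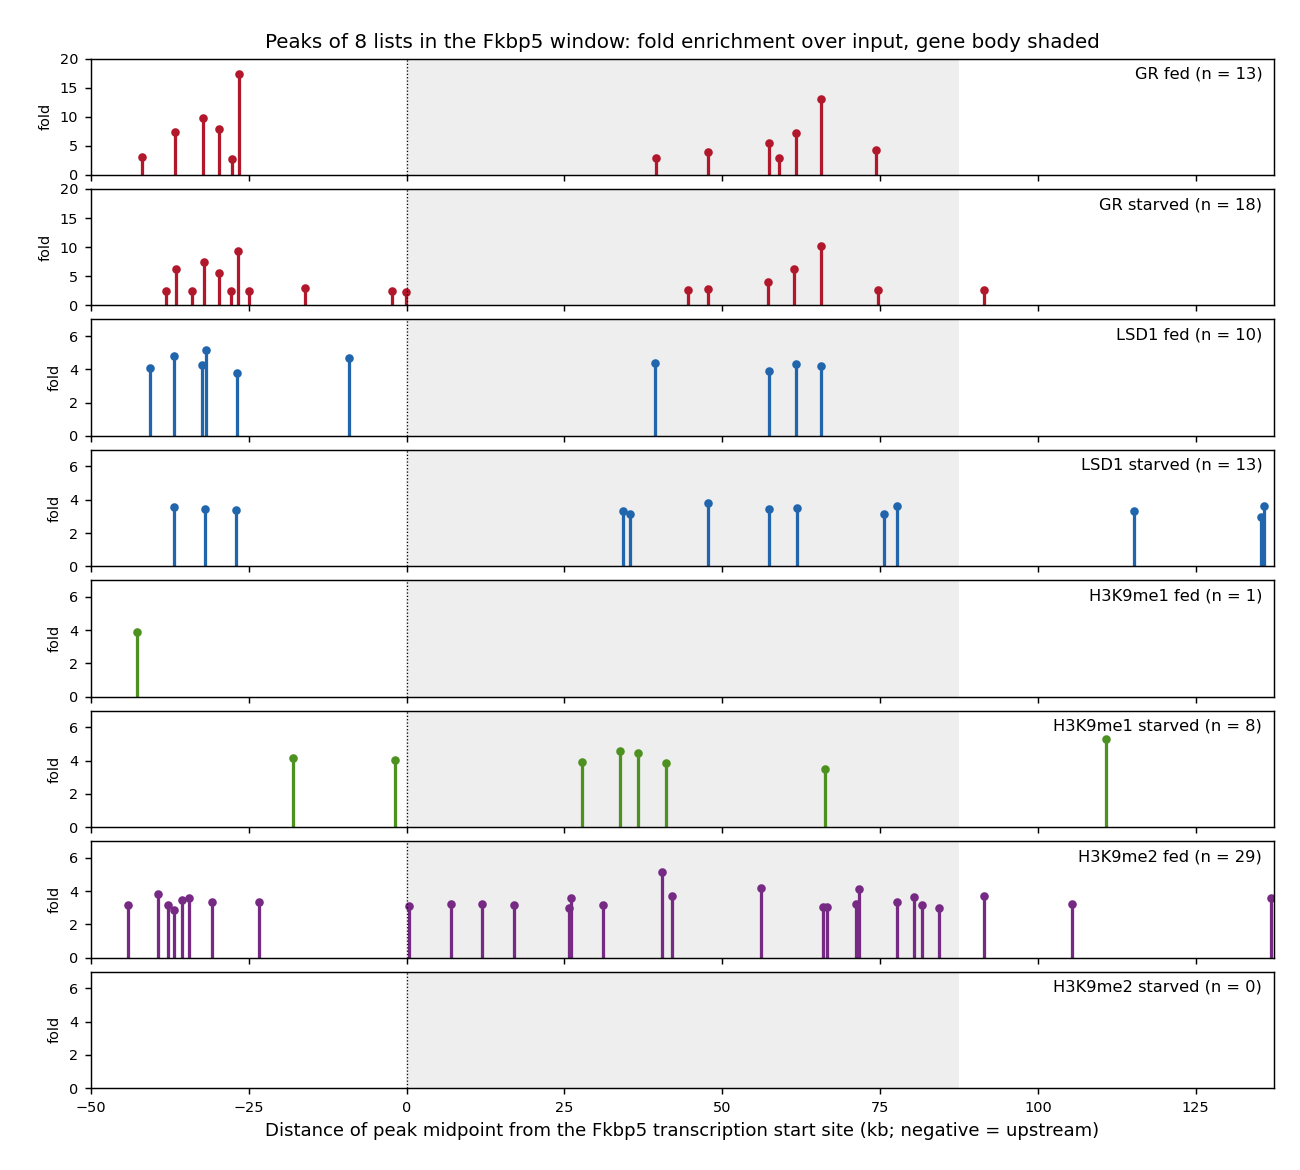
Fold enrichment over input (vertical axis, 0 to 20 for GR and 0 to 7 for the others) of each peak against the distance of its midpoint from the Fkbp5 transcription start site in kb, 1 panel per list, with the gene body shaded. GR fed peaks form 1 group between 26.5 and 41.9 kb upstream and another between 39.4 and 74.4 kb into the gene, with none in the 65.1 kb between them; the single H3K9me1 fed and the 29 H3K9me2 fed peaks contrast with 8 and 0 in the starved lists.

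GR occupied Fkbp5 at 2 groups of sites, and in fed muscle neither reached the RefSeq start site. The first group of 6 GR fed peaks lay upstream, from 26.5 to 41.9 kb before the transcription start site (TSS). The second group of 7 lay in introns, from 39.4 to 74.4 kb after it. No GR fed peak lay between chr17:28446974 and chr17:28512089, a gap of 65.1 kb around the TSS. Outside the window the next GR fed peak on the upstream side was 171 kb beyond the window end with a fold of 4.02, and the next on the downstream side was 20.4 kb beyond it with a fold of 2.70. Just inside, the outermost members had folds of 3.03 and 4.35.

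The strongest member was the upstream peak at chr17:28512089-28513229, with a GR fed fold enrichment of 17.4 over 1141 bp, midpoint 26.5 kb from the TSS. Fold enrichment here is the authors' ratio of ChIP to input signal averaged over the peak, so it depends on where the peak's borders were set. It ranked 2 of 14108 GR fed peaks, between a peak on chromosome 6 with 18.0 and one in the window of Zbtb16 on chromosome 9 with 16.6, and this rank is what the gene was chosen for. Ranked by q-value it was number 4, and by length number 232. In GR starved the overlapping peak, chr17:28512695-28513191, had a fold of 9.32, ranked 60 of 37783, and was 497 bp long. The starved peak lay wholly within the fed one, on its side away from the Fkbp5 TSS, and both held the weaker GRE match printed above. LSD1 had a peak there with a fold of 3.80 in fed and 3.37 in starved muscle.

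Farther upstream lay the GR fed peak at chr17:28517583-28519147, 32.2 kb from the TSS, with a fold of 9.76 in fed and 7.41 in starved muscle. It had the highest LSD1 fed fold of the window, 5.14, and an LSD1 starved fold of 3.47. Release M21 of the GENCODE annotation places an alternative start of Fkbp5 beside it, since 2 of its coding isoforms begin at 28517524, which is 31.4 kb upstream of the RefSeq start. The GR fed peak began 59 bp upstream of that start, the LSD1 fed peak 117 bp upstream of it, and the GR starved peak covered it. In these isoforms the strongest GR site lies within the first part of the transcript rather than before it. Another coding isoform begins at 28511357, 25.2 kb upstream of the RefSeq start. The strongest GR fed peak began 732 bp upstream of that start, and a GR starved peak with a fold of 2.51 lay 55 bp from it. Part of the stretch shared by all 4 lists at the site 32.2 kb upstream is printed for its base composition. Its label names the site, but the whole stretch began 306 bp upstream of the start at 28517524 and does not include it. That whole stretch of 516 bp was 66.7% G or C and had 32 CpG dinucleotides. It held no GRE-like match with up to 2 mismatches.
Alternative start, chr17:28517937-28518236, plus strand: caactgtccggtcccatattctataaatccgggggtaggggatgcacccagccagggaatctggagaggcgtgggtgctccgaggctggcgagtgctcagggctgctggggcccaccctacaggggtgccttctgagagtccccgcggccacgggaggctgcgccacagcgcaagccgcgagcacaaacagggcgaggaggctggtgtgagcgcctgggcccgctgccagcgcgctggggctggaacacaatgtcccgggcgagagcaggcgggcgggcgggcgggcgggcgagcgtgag
The shared stretch at the strongest upstream site, for comparison, was 53.5% G or C and had 1 CpG in 200 bp.

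The peak at chr17:28522071-28523737, 36.8 kb upstream, was the longest GR fed member at 1667 bp. Its GR folds were 7.34 in fed and 6.23 in starved muscle, and its LSD1 folds were 4.79 and 3.58. GENCODE annotates the starts of 2 long non-coding RNAs within it, Gm20109 on the minus strand at 28523148 and E230001N04Rik on the plus strand at 28522720. The stretch common to the 4 lists was rich in CpG as well, with 35 in 428 bp. It was also 1 of the 2 GR fed peaks that an H3K9me2 fed peak overlapped.

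The remaining upstream GR fed peaks were at chr17:28515459-28516337 (29.7 kb, fold 7.83 in fed and 5.59 in starved), at 27.7 kb (2.77 and 2.48) and at 41.9 kb (3.03, no starved peak). LSD1 had no peak at any of them in either condition. So a GR fold of 7.83 occurred without an LSD1 call, while the weaker GR site at 57.4 kb in the gene had one.

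In the gene body the strongest peak was that of intron 5 with the full GRE match, chr17:28420161-28420753, 65.7 kb after the TSS. Its GR fold was 13.1 in fed muscle, rank 22, and 10.2 in starved muscle, rank 39. The order of the 2 leading sites was thus the upstream site first in fed muscle (17.4 and 13.1) and the intron 5 site first in starved muscle (10.2 and 9.32). The gene was chosen for the fed fold of the upstream site, so this order is a description. The fed and starved peaks of that site also differ in length. No spread between replicates is known for either difference. An LSD1 peak was called at this intron 5 site in fed muscle with a fold of 4.17, and none in starved muscle. The peaks of intron 5 at 61.6 kb (GR folds 7.13 and 6.17) and of intron 4 at 57.4 kb (5.49 and 4.01) were called in all 4 lists, with LSD1 folds of 4.32 and 3.48 at the former and 3.93 and 3.46 at the latter.

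The other intronic GR fed peaks were weaker. In intron 7 the folds were 4.35 in fed and 2.62 in starved muscle, and in intron 2 they were 3.97 and 2.84. LSD1 had no peak at the intron 7 site in either condition. At the intron 2 site it had one in starved muscle only. Its fold of 3.78 was the highest of the LSD1 starved peaks in the window, with a q-value of 0.034. The peaks of intron 5 at 59.0 kb (2.95) and of intron 1 at 39.4 kb (2.93) were not overlapped by a starved peak. The intron 1 site had an LSD1 fed fold of 4.36, higher than that at the strongest GR site. All 7 midpoints lay in introns and none in an exon.

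The promoter itself is shown because the 2 GR lists differ there. The 250 bases before the RefSeq start, on the strand of the gene (RefSeq, GRCm38), were as follows.
Promoter of Fkbp5, chr17:28486150-28486399, minus strand: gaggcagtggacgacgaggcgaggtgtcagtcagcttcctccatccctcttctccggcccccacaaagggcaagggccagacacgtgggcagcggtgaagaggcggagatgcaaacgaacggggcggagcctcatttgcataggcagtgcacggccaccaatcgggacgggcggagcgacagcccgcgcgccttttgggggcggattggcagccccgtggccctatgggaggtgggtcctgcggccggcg
GR fed had no peak over this sequence, and its nearest one began 25.9 kb away. GR starved had a peak at chr17:28486162-28486431, from 13 bp before the TSS, with a fold of 2.34 and a q-value of 0.057, which ranked 36875 of 37783. A further GR starved peak lay 2.29 kb upstream with a fold of 2.40, rank 36493. Both were among the weakest of a long list and above a q-value of 0.01. No LSD1 list had a peak at the promoter, and no GRE-like sequence and no NRF1 motif (nuclear respiratory factor 1, searched as GCGCATGCGC without mismatch, also its own reverse complement) were found from 250 bases before to 50 after the start. A GRE-like sequence was present in 0.164% and the NRF1 motif in 0.971% of 32851 promoters of that length.

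**Figure D2:**
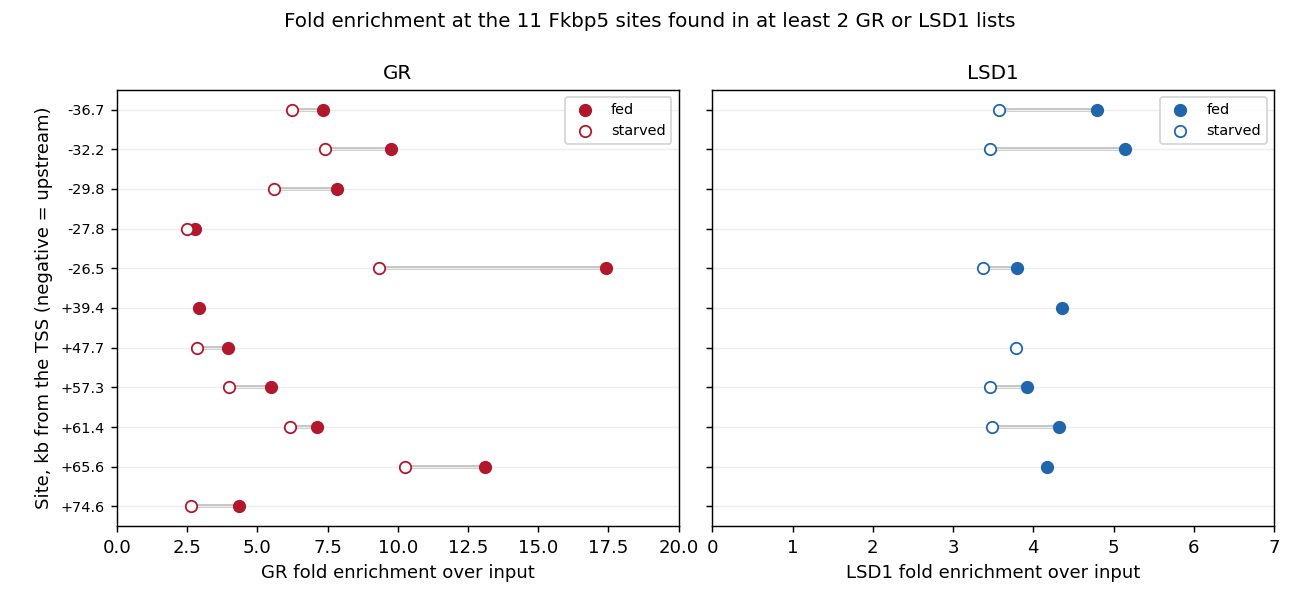
Fold enrichment over input at the 11 sites called in at least 2 of the GR and LSD1 lists, ordered by distance from the TSS in kb, with GR on the left and LSD1 on the right; filled points are fed, open points starved, a line joins both where both were called. At the 10 sites with both GR peaks and the 5 with both LSD1 peaks the starved fold lies below the fed one.

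Merging overlapping peaks of the GR and LSD1 lists gave 30 sites. Of these, 11 were called in at least 2 lists, 5 of them in all 4. Sites in a single list numbered 19, of which 8 were in GR starved, 7 in LSD1 starved, 2 in GR fed and 2 in LSD1 fed. Without the LSD1 starved list 11 sites stayed in at least 2 lists and 6 were in all 3.

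The comparison of conditions for GR asked which sites of fed muscle were also called after starvation and how their folds differed. GR starved had 18 peaks in the window and GR fed 13. The whole starved list was longer too (37783 and 14108 peaks), and its 14108 peaks of highest fold gave 9 in the window. A GR starved peak overlapped 10 of the 13 GR fed peaks, beside 65.8% over all GR fed peaks. A GR fed peak overlapped 10 of the 18 GR starved peaks, beside 24.5% over all. The gene was chosen on its GR fed values, and GR fed peaks were 13.4 times as dense in its window as over the genome. These shares are therefore a description. All 8 GR starved peaks without a fed partner had folds between 2.34 and 3.07.

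In each of the 10 pairs the GR starved fold was the lower one, with a median starved to fed ratio of 0.745 and a range from 0.536 to 0.895. Over all 9287 GR pairs the median ratio was 0.878 and 78.7% were below 1. Among the 1440 pairs with a fed fold of at least 5, which were picked on the fed value, the median was 0.695, and the 7 such pairs of the window had 0.760. The lowest ratio in the window was that of the strongest upstream site, and 2.84% of all pairs and 17.5% of those with a fed fold of at least 5 were lower still. Among the 105 GR pairs with a fed fold of at least 10, the median was 0.690 and the lower quartile 0.554. The gene was chosen for the fed fold of this site, which is the denominator of its ratio, so this low place is a description. The highest ratios were 0.895 at 27.7 kb upstream, 0.866 at 61.6 kb in intron 5 and 0.849 at 36.8 kb upstream. The direction at the gene was therefore that of most pairs in these libraries.

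**Figure D3:**
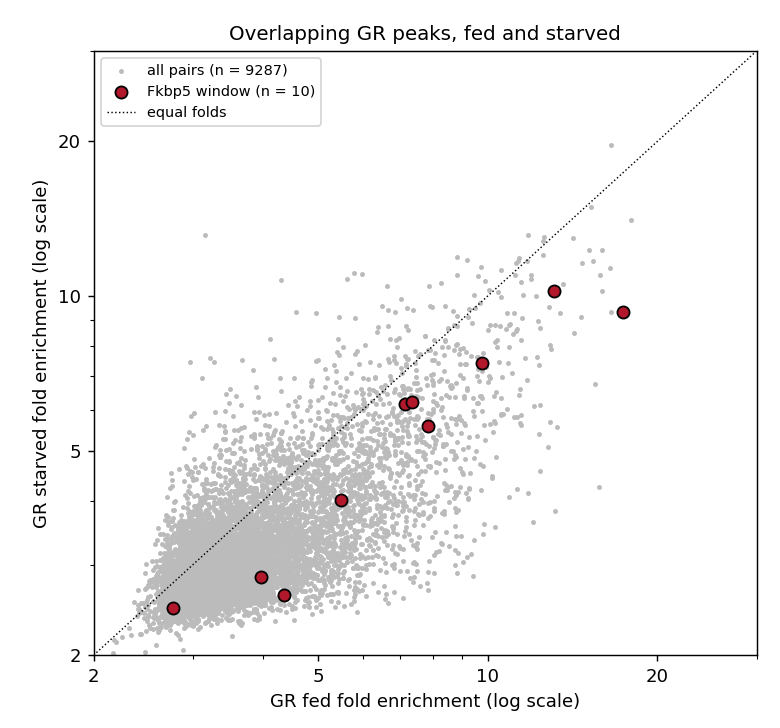
GR fold enrichment in starved against fed muscle for overlapping peaks, both on log scales, with the 9287 pairs of the genome in grey, the 10 pairs of the Fkbp5 window in red and equal folds as a dotted line. All 10 red points lie below the line, as do 78.7% of the grey ones, and the rightmost red point is the site 26.5 kb upstream (17.4 in fed, 9.32 in starved).

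LSD1 fed had 10 peaks in the window with folds from 3.80 to 5.14. A GR fed peak overlapped 8 of them, beside 42.8% over all LSD1 fed peaks, and a GR starved peak 7, beside 55.1%. The reverse count was 7 of 13 GR fed peaks overlapped by an LSD1 fed peak, beside 48.3%. Since the gene was chosen on its GR fed values, these shares with GR fed are a description. GR and LSD1 did not order the sites alike, since the LSD1 fed fold at the strongest GR site was the lowest of the 10 and ranked 12121 of 16616. The LSD1 peaks apart from GR fed were at 40.7 kb upstream (4.09) and at 9.17 kb upstream (4.71). The latter was 55 bp long, the shortest length in that list, and lay wholly in sequence that the reference marks as repeat.

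LSD1 starved had 13 peaks, all with a q-value between 0.0295 and 0.0876 and folds from 2.94 to 3.78. The list is the longest of the GR and LSD1 lists with 66332 peaks, a number other than the one the study's text gives, so it may be another version. Its 16616 peaks of highest fold gave 1 peak in the window, and none had a q-value of 0.01 or less. An LSD1 starved peak overlapped 5 of the 10 LSD1 fed peaks (23.1% over all LSD1 fed peaks), and an LSD1 fed peak 5 of the 13 LSD1 starved peaks (5.85% over all). The 5 starved to fed ratios ran from 0.675 at the site beside the alternative start 31.4 kb upstream to 0.887 at the strongest GR site. Over all 3834 LSD1 pairs the median was 0.854. Among the 369 LSD1 pairs with a fed fold of at least 5, which were picked on the fed value, the median was 0.656. The site with the ratio of 0.675, with a fed fold of 5.14, was the only one of the window among them. An LSD1 starved peak overlapped 6 of the 18 GR starved peaks (14.7% over all), and a GR starved peak 6 of the 13 LSD1 starved peaks (9.14% over all).

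The comparison of the marks addressed whether methylation of H3K9 at the gene differed between fed and starved muscle. The window held 29 peaks of H3K9me2 fed and 0 of H3K9me2 starved. Over the genome, 97.6% of all genes had an H3K9me2 fed peak in a window made the same way, and 15.9% had an H3K9me2 starved one. The fed list held 171402 peaks and the starved list 6624, and the 6624 fed peaks of highest fold gave 1 peak at Fkbp5. The strongest H3K9me2 fed peak lay in intron 1 at chr17:28445624-28445879, 40.4 kb after the TSS, with a fold of 5.16 and rank 467. One of 578 bp, the longest, reached from intron 1 into exon 1 and ended 91 bp short of the TSS, with a fold of 3.08. In all, 18 lay in the gene body, 9 of them in intron 1, with 8 upstream and 3 downstream.

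H3K9me2 fed peaks overlapped 2 of the 13 GR fed peaks (16.5% over all) and 2 of the 10 LSD1 fed peaks (16.8% over all). Both times these were the sites of intron 5 and of 36.8 kb upstream. The H3K9me2 fold was 3.02 at the former and 2.89, the lowest of the 29, at the latter. At the strongest upstream GR site the nearest H3K9me2 fed peak was 2453 bp away.

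H3K9me1 had 1 peak in fed muscle, 42.8 kb upstream with a fold of 3.89 and a length of 49 bp. In starved muscle it had 8, with folds from 3.52 to 5.33. The starved list was also the longer one (38023 and 14178 peaks), and its 14178 peaks of highest fold gave 3 in the window. Of all genes, 54.3% had an H3K9me1 fed peak and 82.8% an H3K9me1 starved peak in their window. Of the starved peaks, 4 lay in intron 1 (27.8, 33.8, 36.7 and 41.1 kb after the TSS), 1 in intron 5, 2 upstream (1.88 and 18.1 kb) and the strongest, 111 kb after the TSS, beyond the gene. None overlapped a GR or LSD1 site, and the closest lay 210 bp from the GR starved peak at 2.29 kb upstream and 237 bp from the intron 5 site. Of these 8 peaks, 4 had the shortest length of the list, 49 bp. For both marks the fed and starved libraries also carried different library codes at the head of their extraction protocols in the labels, so condition and code cannot be told apart.

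Set against the other genes, Fkbp5 had many GR sites. Of all genes, 55% had a GR fed peak in their window and the median was 1, while 44 of 26180 had more than the 13 of Fkbp5 and 3 had a higher top fold. In GR starved, 76.1% of genes had a peak, 454 had more than 18 and 108 a higher top fold. In LSD1 fed, 62% of genes had a peak, 292 had more than 10 and 1859 a higher top fold. In LSD1 starved, 92.7% of genes had a peak, 616 had more than 13 and 14529 a higher top fold, so Fkbp5 ranked high by peak number and below the middle of the genes by fold. These ranks rest on the contrast the gene was chosen for and are a description. Longer genes have longer windows, and per 100 kb the GR fed window held 6.94 peaks against 0.516 over the genome, a ratio of 13.4. The ratio was 6.96 in GR starved, 8.77 in LSD1 fed and 2.86 in LSD1 starved. It was 1.03 in H3K9me1 fed, 3.08 in H3K9me1 starved and 2.46 in H3K9me2 fed.

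Not all of the window need belong to Fkbp5. The start of Armc12 lies 44.7 kb upstream on the plus strand, and those of Tulp1 and Tead3 lie 121 kb and 135 kb downstream. By the nearest RefSeq start, 6 of the 13 GR fed peaks, all the upstream ones, would be given to Armc12, 4 to Fkbp5 and 3 to Tulp1. This count leaves out the alternative GENCODE starts of Fkbp5, among them the one 31.4 kb upstream. Apart from the peak at 41.9 kb, the upstream GR fed peaks lie nearer to that start than to the start of Armc12. Which gene a site acts on was not measured.

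The 5 genes most like Fkbp5 were those with the smallest distance between the log2 of their highest folds over the 8 lists. Zbtb16, a zinc finger transcription factor also induced by glucocorticoids, was the nearest (distance 0.399, median over all genes 4.28). Its highest folds were 16.6 in GR fed, 9.30 in GR starved, 5.08 in LSD1 fed and 4.53 in LSD1 starved, beside 17.4, 10.2, 5.14 and 3.78 at Fkbp5. Rpn1, a subunit of the oligosaccharyltransferase, and Mir6376 followed with 0.418 and share their leading peaks on chromosome 6. Ankrd9 (0.521) and Tecpr2 (0.538) are neighbours on chromosome 12. By the number of peaks per list, 0 of these 5 were among the nearest 5, and by the GR and LSD1 lists alone 3 were.

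The receptor, the chaperones that fold it and an enzyme that supplies its hormone locally were taken as a list of 13 genes. A GR fed peak lay in the window of 12 of the 13 (55% of all genes), with a median of 3 peaks (1 over all genes). Of the 13, 2 had a fold of at least 5, beside 11.5% of all genes. Fkbp4 encodes FKBP52, the close relative that opposes FKBP51 on the receptor. It had 1 GR fed peak with a fold of 3.49, 4 GR starved peaks (highest 3.00), 2 LSD1 fed peaks (highest 4.52) and 5 LSD1 starved peaks (highest 4.28). The highest GR fed folds of the list were 13.4 at Ppp5c, a phosphatase of the HSP90 complex, 6.03 at Dnajb1, an HSP40 co-chaperone, and 4.86 at Stip1, which links HSP70 to HSP90. In GR starved they were 9.28, 4.30 and 6.80, so the value at Stip1 was higher there and those at Ppp5c and Dnajb1 lower. No gene of this list reached Fkbp5 in GR peak number or top fold in either condition, which is a description, since Fkbp5 was chosen on its GR fed values.

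Among 14 other genes known to be induced by glucocorticoids, 14 had a GR fed peak (55% of all genes) with a median of 6 peaks (1 over all genes), and 12 had a fold of at least 5 (11.5% of all genes). The highest GR fed folds were 16.6 at Zbtb16, 11.9 at Tsc22d3, which encodes the anti-inflammatory protein GILZ, and 10.4 at Klf15, a transcription factor of amino acid breakdown in muscle. All were below the 17.4 of Fkbp5, and Zbtb16 alone had more GR fed peaks, 36. Since Fkbp5 was chosen for its GR fed peak, its place above both lists in that fold follows from the choice and supports nothing. In GR starved Tsc22d3, with 10.8, was above the 10.2 of Fkbp5. Both lists were put together with results of these data known.

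**Figure D4:**
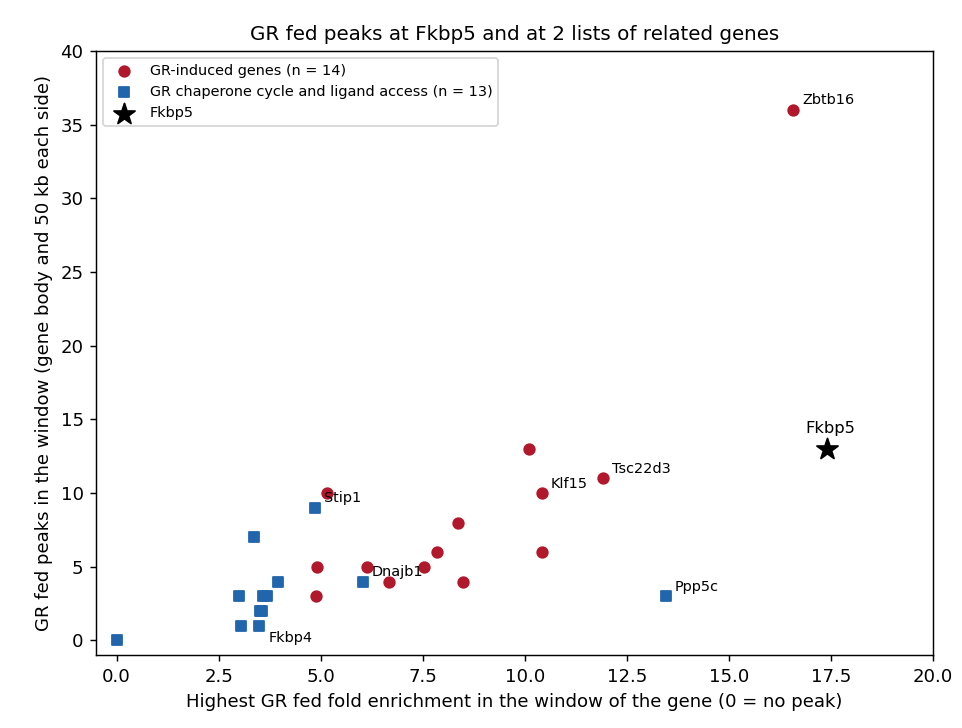
Number of GR fed peaks in the window of each gene (gene body and 50 kb on each side) against the highest GR fed fold enrichment there, for 14 GR-induced genes (circles), 13 genes of the GR chaperone cycle and ligand access (squares) and Fkbp5 (star). Fkbp5, which was chosen for its GR fed fold, lies farthest right at 17.4 with 13 peaks, and Zbtb16 lies highest with 36 peaks. Most chaperone genes lie at a fold under 5, 1 of them at 0 without a peak.

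As a check of the labelled tissue, promoters of 8 skeletal muscle genes were searched for peaks. Of these, 4 had a GR fed peak (13.4% of all genes), 4 a GR starved (23.3%), 5 an LSD1 fed (22.4%) and 4 an LSD1 starved peak (16.2%). Of 5 liver genes none had a GR or LSD1 fed peak at the promoter and 1 an LSD1 starved one, and of 4 adipocyte genes none had a peak in the 4 lists. Occupancy of a promoter is not expression, which was not measured in these libraries.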

How the data were processed

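ChIP-seq libraries of mouse skeletal muscle, fed or starved for 24 h, were grouped by their labels. The authors mapped single-end reads to mm10 with Bowtie, kept unique reads and used MACS2 to call broad peaks in each library against its input. Each of the 8 deposited lists gives per peak its fold enrichment over input (a ratio) and 2 significance columns, the p-value and the q-value as −log10. The q-values reach 0.0998, although a false discovery rate of 0.01 is stated. The filter also used a blacklist made for the human genome. The labels' processing notes name bcl2fastq 2.20.0.422. Depth is unknown.

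Peaks were assigned by midpoint and compared by overlap of at least 1 bp, with Python 3.11.15, pandas 2.3.3 and numpy 2.4.6 on RefSeq and GENCODE annotation of GRCm38. The functions were tested on simulated peaks. Sites in at least 2 of the 4 GR and LSD1 lists were described 1 by 1, the others by counts and ranges. The 5 genes most alike were taken after leaving out 11 genes that share GR or LSD1 peaks with Fkbp5. The window, members and gene lists were chosen with earlier results of these data known. Alternatives were a q-value of 0.01 or less, a fold of at least 5, margins of 10 kb and 100 kb, any base in the window, an overlap of 50% of the shorter peak, midpoints within 500 bp, other mismatch numbers and other rankings.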

Additional observations from a re-analysis of the deposited data

Results flagged for a closer look

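The H3K9me1 and H3K9me2 counts at Fkbp5 moved in opposite directions between the conditions, and this difference between marks was not tested. H3K9me1 had 7 more peaks in starved than in fed muscle (8 and 1), whereas the starved minus fed difference for H3K9me2 was -29 (0 and 29). The whole lists differed the same way, with 14178 and 38023 peaks for H3K9me1 and 171402 and 6624 for H3K9me2. Both fed libraries of these marks carried one library code in their extraction protocols and both starved libraries the other.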

How the results depend on the processing

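Window counts below follow the order GR fed, GR starved, LSD1 fed, LSD1 starved, H3K9me1 fed, H3K9me1 starved, H3K9me2 fed and H3K9me2 starved, and were 13, 18, 10, 13, 1, 8, 29 and 0 as reported. They became 11, 8, 7, 0, 0, 6, 4 and 0 at a q-value of 0.01 or less, 7, 6, 1, 0, 0, 1, 1 and 0 at a fold of at least 5, and 7, 9, 5, 7, 0, 6, 19 and 0 with margins of 10 kb. With any base in the window none changed, and with margins of 100 kb all stayed within 1.5 times. In alternatives chosen after seeing the data, each longer list was cut to the length of the shorter one of its antibody by fold, which left 9 GR starved, 1 LSD1 starved, 3 H3K9me1 starved and 1 H3K9me2 fed peaks. So GR starved had more peaks than GR fed as deposited, but fewer under the q-value and fold limits and at equal list length. Leaving out the LSD1 starved list, also added later, kept 11 sites in at least 2 lists. With both lists at a q-value of 0.01 or less, LSD1 fed peaks overlapped 4 GR fed peaks, and LSD1 starved peaks overlapped 0 GR starved and 0 LSD1 fed peaks. With the starved lists cut to the fed length these last counts were 1 and 0. The counts of GR fed peaks that a GR starved peak overlapped lay between 7 and 10. With up to 2 mismatches 4 GR fed and 5 GR starved peaks had a GRE-like sequence, and 0 GR starved peaks had one within 300 bases around the midpoint. The strongest peak ranked 4 by q-value and 232 by length, and 0 or 3 of the 5 most alike genes were named again by peak number or by the GR and LSD1 lists alone. The cause of these changes was not tested. No paired analysis was possible because each group is 1 library and no result comes from a test.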
